A study of Gossypium hirsutum with 24 samples.

Results

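Ethylene (ET) biosynthesis and signaling were represented by 35 probe sets of the Affymetrix Cotton GeneChip, out of 23972 probe sets in the deposited table, of which 15615 held values. Of the 35, 18 were listed under ET biosynthesis and 17 under ET signaling, and they matched 24 genes of Gossypium raimondii, a diploid relative of upland cotton. The lists had been drawn from probe sets that differed between damaged and undamaged leaves on these same arrays, so the members were chosen by this difference. It is therefore given for them as a description, with no p-value, and nothing was read from the counts of members beside the percentages over all probe sets. The arrays measured leaves of upland cotton (Gossypium hirsutum cv. CCRI12) on which cotton bollworm larvae (CBW, Helicoverpa armigera) had fed continuously for 6, 12, 24 or 48 h, and leaves of undamaged control plants kept in the same way and harvested at the same 4 times. Each of the 8 groups had 3 arrays, 24 in all, labelled as biological replicates, and each array stood for whole leaves pooled from 3 plants grown together. With 3 arrays against 3, an exact permutation test of a single value cannot go below p = 0.1.

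ET is a gaseous plant hormone made from methionine: S-adenosylmethionine synthetase (SAMS) makes S-adenosylmethionine, ACC synthase (ACS) turns it into 1-aminocyclopropane-1-carboxylic acid (ACC), and ACC oxidase (ACO) releases ET from ACC. In Arabidopsis, ET binding to receptors such as ETR1 stops the kinase CTR1 from holding back EIN2, the transcription factors EIN3 and EIL1 then accumulate because the F-box proteins EBF1 and EBF2 no longer mark them for degradation, and they switch on ET response factors (ERFs). ACS is usually the rate-limiting step, and both wounding and chewing insects are known to raise ET production in leaves. By the gene names of RefSeq and of the study, 3 members stood for SAMS, 2 for ACS, 8 for ACO, 1 for a MAP kinase, 4 for EIN3/EIL factors and 2 for ERFs. For the other 5 biosynthesis and 10 signaling members the sources used here named a block of the pathway and a gene of G. raimondii but no enzyme or component.

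All values below are MAS5 signal intensities, and differences are means of log2 intensity in CBW-damaged leaves minus control leaves with the standard error (SE) of a linear model over all 24 arrays. The median intensity of an array was 358 to 399 and its 20th percentile 106 to 121, and arrays of 1 group correlated at 0.9305 to 0.9949 on the log2 scale. Rubisco activase (RCA1), a marker of photosynthetic leaf tissue that was added after the files were seen, measured 613 to 763 in CBW-damaged leaves against 3325 to 4585 in control leaves at 6 h. It measured 12558 to 14500.2 in CBW-damaged leaves against 17436 to 17853 in control leaves at 12 h, 7914 to 8988 against 14884 to 15344 at 24 h, and 10259 to 10736 against 13518 to 15580 at 48 h, so that undamaged leaves were lowest in it at 6 h. The fiber genes E6 and CesA1, taken as markers of another tissue, measured 25.8 to 415 and 48.7 to 206. In whole leaves, fewer cells of a type and less RNA per cell cannot be told apart, and the part of this marker in the values below was not tested. The plants were kept under a light:dark cycle, and the study's methods give no clock hour of harvest. Across the 4 times, time after onset and time of day cannot be told apart, and the part of time of day was not tested. Every probe set had values at a given time on all arrays of both groups or on none, and 29 of the 35 members were measured at all 4 times.

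At 6 h, 20 of 32 measured members were called higher in CBW-damaged leaves and 6 lower (limma, adjusted p of 0.05 or less), beside 26.1% and 36.5% of all probe sets. Such counts restate the choice of the members, which used the same contrast on the same arrays, and are no test of them. At 12 h, 18 of 32 were called higher and 7 lower, beside 19.9% and 24.7%. At 24 h the counts were 21 and 8 of 32, beside 20% and 29.3%, and at 48 h 15 and 9 of 29, beside 22.4% and 22.6%. The median log2 difference over the members was 0.80, 0.62, 1.12 and 0.59 at 6, 12, 24 and 48 h, where over all probe sets it was -0.127, -0.044, -0.085 and 0.003. All 3 CBW arrays lay above all 3 control arrays for 20, 19, 21 and 17 members, in order of time, beside 28%, 23.5%, 23.6% and 31.1% of all probe sets, and below them for 6, 6, 8 and 9, beside 37.8%, 28.6%, 33.6% and 31.3%.

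A higher level of 4-fold or more was measured for 8, 5, 9 and 2 members at the 4 times, beside 5.52%, 3.78%, 4.24% and 4.44% of all probe sets. A lower level of 4-fold or more was measured for 0, 0, 1 and 0 members, beside 2.86%, 1.81%, 3.23% and 2.27%, the 1 being Ghi.10003.1.S1_s_at at 24 h. Over the measured times 22 members were always higher in CBW-damaged leaves, 8 were always lower, and 5, all in the signaling block, took both signs. The 22 include the 4 members with values at 1 time only and the 1 with values at 2 times, for which always says little. Shares over all probe sets were not counted for this split, so that nothing is read from it. The 15 members that reached 4-fold at 1 time or more, with the brightest member of each role, are described array by array. GhiAffx.31527.1.S1_s_at lay just inside that mark, with 2.07 at 24 h, and Ghi.5775.1.S1_s_at just outside it, with 1.96.

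**Figure D1:**
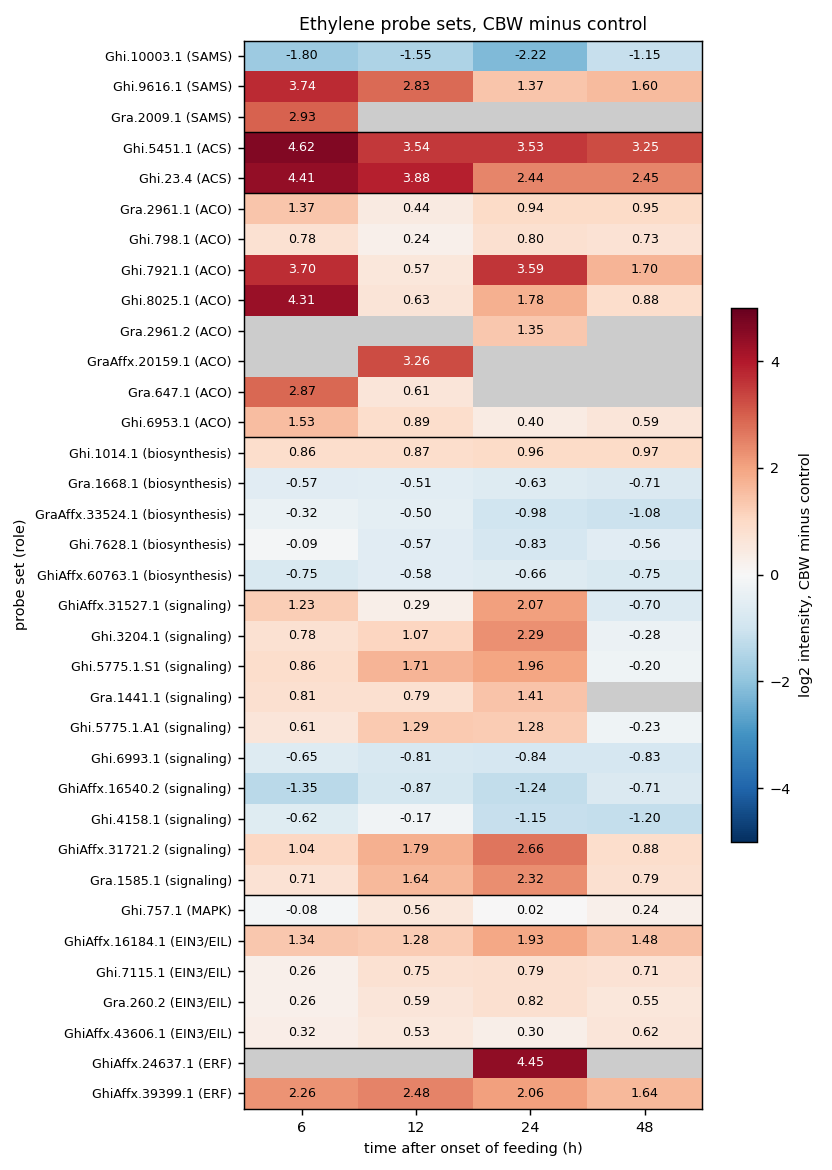
Log2 intensity in CBW-damaged leaves minus control leaves for the 35 ethylene probe sets (rows, by role) at 6, 12, 24 and 48 h (columns), means of 3 arrays a group; red is higher in CBW-damaged leaves, blue lower, grey no values. The ACS probe sets had 4.62 and 4.41 at 6 h, or 3.89 and 1.95 with a floor at the 20th percentile of each array, and 9 of the 15 signaling probe sets measured at all times were furthest from controls at 24 h.

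The SAMS probe sets, which stand for the enzyme that makes the methyl donor and ET precursor S-adenosylmethionine, lay on opposite sides of the controls. At 6 h, Ghi.9616.1.S1_s_at (LOC107910531, MAT/SAMS) measured 6108, 7767 and 7383 in CBW-damaged leaves, against 868, 403 and 416 in control leaves, a log2 difference of 3.74 (SE 0.409) or 13.4-fold. At 12 h it measured 4515, 4076 and 5064 in CBW-damaged leaves, against 544, 614 and 769 in control leaves. Its 24 h values were 3421, 2508 and 2727 in CBW-damaged leaves, against 1434, 607 and 1553 in control leaves. The damaged leaves were above every control array at these times, but the distance had shrunk to 2.59-fold by 24 h, with a lower level in damaged leaves and a higher one in 2 of 3 control arrays. At 48 h the values were 3629, 3367 and 3545 in CBW-damaged leaves, against 977, 2605 and 608 in control leaves, a difference of 1.60 (SE 0.409). This last value leaned on control replicate 2, the highest of the control arrays, and was 2.19 without it. The second probe set of the same G. raimondii gene, Gra.2009.1.S1_s_at, had values at 6 h only, 99.1, 157 and 134 in CBW-damaged leaves, against 17.1, 16.8 and 16.1 in control leaves, a difference of 2.93 (SE 0.182). These controls lay far below the 20th percentile of the arrays, and the difference was 0.22 with values raised to that percentile as a floor and 1.72 with 32 added to each intensity.

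Ghi.10003.1.S1_s_at, a SAMS only by elimination from the enzymes that the study's text names, was lower in CBW-damaged leaves at every time. It measured 149, 102 and 239 in CBW-damaged leaves, against 644, 337 and 705 in control leaves at 6 h, and 50.4, 57.3 and 37.8 in CBW-damaged leaves, against 101, 153 and 177 in control leaves at 12 h. After 24 h it measured 85, 101 and 143 in CBW-damaged leaves, against 416, 422 and 709.8 in control leaves. The arrays of the 2 groups never overlapped, and the control level itself was lowest at 12 h, 3.84-fold under that of 6 h. At 48 h the values were 167, 123 and 162 in CBW-damaged leaves, against 255, 519 and 271 in control leaves. The log2 differences were -1.80 (SE 0.355), -1.55, -2.22 and -1.15 at 6, 12, 24 and 48 h, and at 24 h the control level was 4.67-fold that of damaged leaves. The damaged arrays of 12 h lay below the 20th percentile, and with it as a floor the difference at that time was -0.36. If Ghi.10003.1.S1_s_at is a SAMS, the SAMS members stood for 1 gene that was higher and 1 that was lower under feeding.

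The ACS members, for the committed step of ET synthesis, had large differences at 6 h, over control values that lay partly or wholly below the 20th percentile of the arrays. With that percentile as a floor the 6 h differences were 3.89 and 1.95, where the ACO probe set Ghi.8025.1.S1_s_at kept 4.31. Ghi.5451.1.S1_at (LOC107947061, ACS3/ACS6) measured 1262, 2166 and 2172 in CBW-damaged leaves, against 88.1, 135 and 33.8 in control leaves at 6 h, a difference of 4.62 (SE 0.479) or 24.5-fold. At 12 h, when its damaged level was highest, it measured 2257, 2649.7 and 3286 in CBW-damaged leaves, against 366, 204 and 168 in control leaves. Damaged leaves stood far above controls on every array, and the control level was also higher at 12 h than at 6 h, by 3.14-fold. At 24 h it measured 1323, 1155 and 988 in CBW-damaged leaves, against 181, 119 and 45.9 in control leaves, and at 48 h 1704, 719.8 and 1273 in CBW-damaged leaves, against 118, 127 and 121 in control leaves. The difference stayed between 3.25 and 3.54 on the log2 scale over the later 3 times, and the lowest damaged array of this probe set, at 48 h, was above its highest control array of any time.

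The second ACS, Ghi.23.4.A1_at (LOC107923295), was dim in undamaged leaves. At 6 h it measured 1031, 596 and 137 in CBW-damaged leaves, against 23, 18.9 and 20.2 in control leaves, a difference of 4.41 (SE 0.557), and the damaged arrays differed from one another by up to 7.53-fold. At 12 h it measured 674, 447 and 605 in CBW-damaged leaves, against 67, 28.7 and 29.8 in control leaves. Its replicates were closer at 12 h, where the difference was 3.88 (SE 0.557), and control levels were again somewhat higher than at 6 h. Its 24 h values were 275, 74.8 and 98.2 in CBW-damaged leaves, against 27.3, 21.1 and 21.8 in control leaves, and at 48 h 106, 215 and 167 in CBW-damaged leaves, against 36.9, 27.5 and 23 in control leaves. The groups stayed apart, with differences of 2.44 and 2.45, at a damaged level that was 4.47-fold lower at 24 h than at 12 h. Because control values of this probe set lay below the 20th percentile of the arrays, the size of its difference depended on how low values were treated, and with a floor at that percentile it was 1.95, 2.3, 0.32 and 0.45 at the 4 times.

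The ACO members, for the last step of ET synthesis, were all higher in CBW-damaged leaves at every time they were measured, by log2 0.24 to 4.31, but the 3 probe sets of the ACO1 gene Gorai.001G096300 nearly lost their difference at 12 h. At 6 h, Ghi.8025.1.S1_s_at (LOC107945007) measured 7851, 7591 and 7292 in CBW-damaged leaves, against 352, 541 and 289 in control leaves, a difference of 4.31 (SE 0.275) or 19.9-fold. At 12 h it measured 9235, 9042 and 9739 in CBW-damaged leaves, against 6949, 5726 and 5508 in control leaves, and the difference was only 0.63 (SE 0.275). Undamaged leaves of 12 h held 15.9-fold the intensity of undamaged leaves of 6 h, while the damaged leaves were themselves at their highest. RCA1 also differed between these undamaged leaves, with 17436 to 17853 at 12 h and 3325 to 4585 at 6 h, and its part was not tested. Nor was that of the time of day at harvest, which cannot be told apart from elapsed time here. After 24 h Ghi.8025.1.S1_s_at measured 6391, 5317 and 3362 in CBW-damaged leaves, against 1612, 1784 and 975 in control leaves, and at 48 h 3265, 2473 and 2978 in CBW-damaged leaves, against 2163, 1070.0 and 1664 in control leaves. Damaged leaves were thus above every control array of the same time throughout, by 3.44-fold at 24 h and 1.84-fold at 48 h.

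Ghi.7921.1.S1_x_at (LOC107954048, ACO1) gave the same course. It measured 5064, 4049 and 5085 in CBW-damaged leaves, against 262, 583 and 309 in control leaves at 6 h (3.70, SE 0.471), and 4005, 3835 and 3615 in CBW-damaged leaves, against 3684, 2124 and 2186 in control leaves at 12 h (0.57, SE 0.471). The groups overlapped at 12 h through 1 control array, and the control level was 7.11-fold that of 6 h. At 24 h it measured 4356, 2167 and 2289 in CBW-damaged leaves, against 328, 359 and 106 in control leaves, and at 48 h 1329, 973 and 1239.5 in CBW-damaged leaves, against 691, 165 and 409 in control leaves. With the control level at 24 h 11.2-fold lower than at 12 h, the difference was again 3.59 at 24 h and then 1.70 at 48 h. The remaining, dim probe set of the gene, Gra.647.1.A1_s_at, measured 81.6, 67.4 and 73.3 in CBW-damaged leaves, against 7.77, 13.7 and 9.79 in control leaves at 6 h and 74.7, 53.3 and 64.8 in CBW-damaged leaves, against 62.8, 34.9 and 32.9 in control leaves at 12 h, where the groups overlapped. Among all probe sets, 19.9% were called higher and 23.2% lower between undamaged leaves of 12 and 6 h.

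The brightest ACO, Ghi.798.1.S1_s_at (LOC107915412, ACO3), was abundant with or without feeding. It measured 15784, 15255 and 15199.7 in CBW-damaged leaves, against 8494, 8769 and 9638 in control leaves at 6 h, and 13854, 11540.1 and 12386 in CBW-damaged leaves, against 12537, 10331 and 9225 in control leaves at 12 h. Damaged leaves were apart from controls at 6 h (0.78, SE 0.144) and overlapped them at 12 h (0.24), again with the control level at its highest. Its 24 h values were 12746, 13206 and 12565 in CBW-damaged leaves, against 7660.2, 8414 and 6231 in control leaves, and at 48 h 11234, 11595 and 11773 in CBW-damaged leaves, against 7647, 5327 and 8188 in control leaves. The groups did not overlap at either of these times, with differences of 0.80 and 0.73. The other probe sets of its gene ran the same way, Gra.2961.1.S1_a_at with differences of 1.37, 0.44, 0.94 and 0.95, and Gra.2961.2.A1_x_at with 1.35 at 24 h, its only measured time. Both group means of Gra.2961.2.A1_x_at lay below the 20th percentile of the arrays. Its difference was -0.13 with that percentile as a floor and 0.73 with 32 added to each intensity.

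Another ACO gene, with the probe set Ghi.6953.1.S1_s_at (LOC107905899, ACO1), had its largest difference at 6 h (1.53, SE 0.279) and overlapping groups at 24 h (0.40), where the value was 0.01 without control replicate 3. GraAffx.20159.1.A1_s_at, an ACO only by elimination from the enzymes that the study's text names, had values at 12 h alone, 249, 137 and 146 in CBW-damaged leaves, against 18.7, 17.2 and 17.6 in control leaves. Their difference was 3.26 (SE 0.236), with control values below the 20th percentile of the arrays, and 0.57 with that percentile as a floor.

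The 5 biosynthesis members without a named enzyme differed less. Ghi.1014.1.S1_s_at (Gorai.004G146800) was the brightest and the only one that was higher under feeding. It measured 3322, 3158 and 3505 in CBW-damaged leaves, against 1684, 1993 and 1839.5 in control leaves at 6 h, and 3941, 2707 and 2497 in CBW-damaged leaves, against 2365, 1447 and 1262 in control leaves at 12 h. After 24 h it measured 3255, 3679 and 3660.0 in CBW-damaged leaves, against 1709, 1899 and 1838 in control leaves, and at 48 h 3307, 3607 and 3534 in CBW-damaged leaves, against 1832, 1526 and 1988 in control leaves. Its groups never overlapped, and the difference was nearly the same at each time, between 0.86 and 0.97, an almost steady doubling (1.81-fold to 1.96-fold). The other 4 were lower in damaged leaves at every time: Gra.1668.1.A1_s_at and GraAffx.33524.1.S1_s_at of Gorai.012G116000, Ghi.7628.1.S1_at and GhiAffx.60763.1.S1_at, with log2 differences between -1.08 and -0.09. Gra.1668.1.A1_s_at was below all control arrays at all 4 times, whereas Ghi.7628.1.S1_at overlapped them at 6 h. The dim GhiAffx.60763.1.S1_at had -0.11, -0.18, -0.13 and -0.05 at the 4 times with a floor at the 20th percentile of each array.

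**Figure D2:**
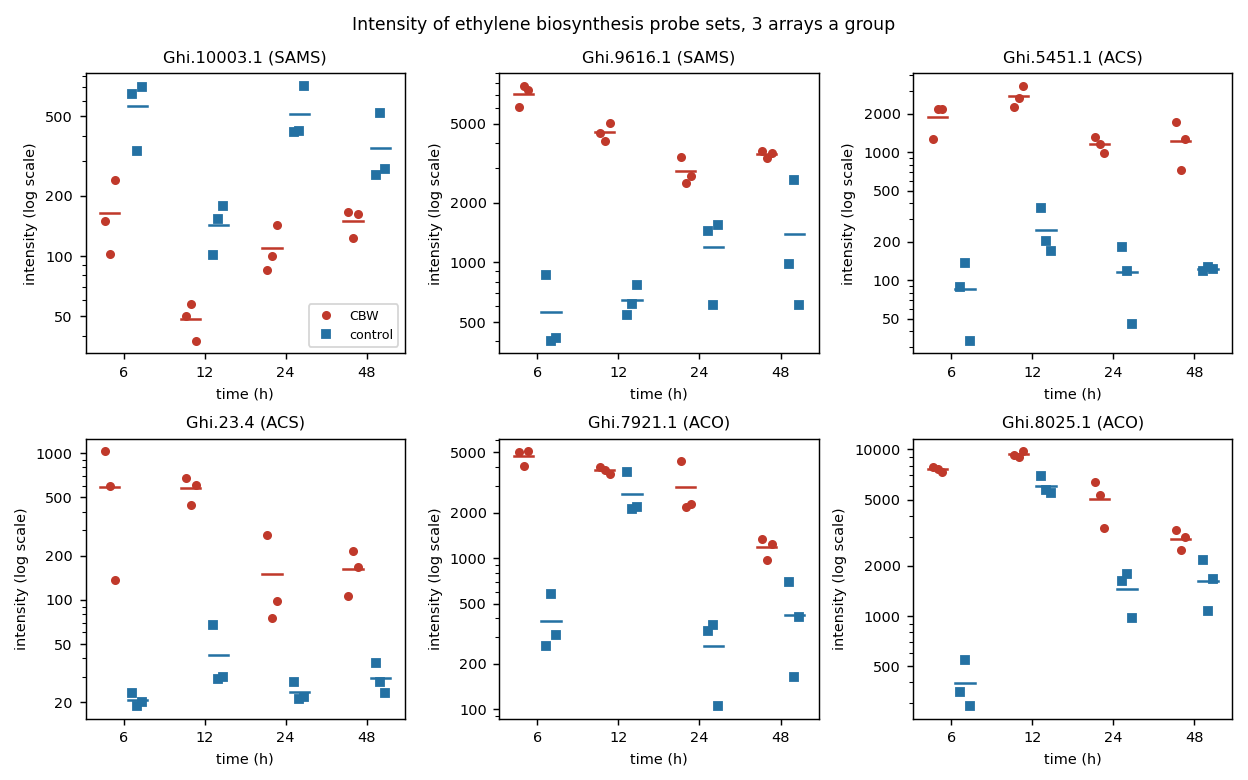
Intensity (log scale) of 6 ET biosynthesis probe sets on each array at 6, 12, 24 and 48 h, with red circles for CBW-damaged leaves, blue squares for control leaves and bars for the mean of 3 arrays. Ghi.8025.1 and Ghi.7921.1 show control leaves close to damaged leaves at 12 h, with differences of 0.63 and 0.57 on the log2 scale, and Ghi.10003.1 is the one with damaged leaves below controls.

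Taken by RefSeq synonyms alone, whatever their values, 10 probe sets carried a symbol of SAMS, ACS or ACO, of which 7 had values, 6 of them members. The other was GhiAffx.56172.1.S1_s_at (LOC107950760), whose only synonym, ACS1, is also used for acyl-CoA synthetase, so that its place in ET synthesis is not settled and the counts are given with and without it. Called higher in CBW-damaged leaves by limma were 7, 5, 6 and 6 of the 7 at 6, 12, 24 and 48 h, or 6, 4, 5 and 5 of the 6 members, and 0 were called lower at any time, which the choice of the members by this contrast leaves as a description. In undamaged leaves, 3 of the 7 were called higher and 1 lower at 12 h than at 6 h, beside 19.9% and 23.2% of all probe sets, and without GhiAffx.56172.1.S1_s_at the counts were 3 and 0 of 6. The same control arrays entered the contrast that chose the 6 members, so the counts over time are a description too and no test of them. At 24 h against 12 h, 1 was called higher and 2 lower, beside 20.2% and 18.4%, and without it 0 and 2. Between 48 and 24 h, 0 were called in either direction, beside 0.199% and 0.171% of all probe sets. The count of 3 was 1 without control 6 h replicate 3 or without control 12 h replicate 1. The response at 48 h was lower than that at 6 h for 2 of the 7 and higher for 0, beside 11.7% and 23.4%. Both were members, chosen by their differences on these arrays, so that this count is a description as well.

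Among the signaling members, the 10 without a named component fell into 7 that were mostly higher under feeding and 3 that were always lower. In the block of the pathway they come from, the study's drawing places the ET receptor ETR, CTR1, a MAP kinase, EIN3, EBF1/2 and ERF1/2, but the sources used here do not tie these names to single probe sets. The study's text counts CTR1 genes among those that were lower, so that CTR1 may be among the always lower members, without telling which. GhiAffx.31527.1.S1_s_at changed side. It measured 401, 463 and 449 in CBW-damaged leaves, against 199, 178 and 183 in control leaves at 6 h (1.23, SE 0.153), and 504, 464 and 516 in CBW-damaged leaves, against 470.2, 326 and 426 in control leaves at 12 h (0.29). At 24 h it measured 485, 373 and 458 in CBW-damaged leaves, against 101, 118 and 94.4 in control leaves (2.07, SE 0.153). Damaged leaves held about the same level at these 3 times, whereas control leaves were 2.16-fold higher at 12 h than at 6 h and then 3.86-fold lower at 24 h. At 48 h it measured 155, 207 and 189 in CBW-damaged leaves, against 317, 243 and 335 in control leaves, so that all damaged arrays were below all control arrays (-0.70, SE 0.153).

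Ghi.3204.1.S1_at (Gorai.005G047900), the one with the highest mean intensity of the 10, was likewise furthest from controls at 24 h and not at 48 h. It measured 2515, 1810.1 and 1556 in CBW-damaged leaves, against 877, 1282 and 1239.6 in control leaves at 6 h (0.78, SE 0.231), and 2324, 1845 and 1741 in CBW-damaged leaves, against 1185, 795 and 860.0 in control leaves at 12 h (1.07). Its 24 h values were 1682, 1729 and 1807 in CBW-damaged leaves, against 288, 502 and 312 in control leaves, or 4.88-fold the control level (2.29, SE 0.231). The controls of 24 h were 2.62-fold below those of 12 h. At 48 h it measured 672, 867 and 763 in CBW-damaged leaves, against 1042, 707 and 1071 in control leaves, and the groups overlapped (-0.28), with damaged leaves 2.28-fold lower than at 24 h and control leaves 2.6-fold higher. The dim Gra.1441.1.A1_at of the same gene had differences of 0.81, 0.79 and 1.41 at its 3 measured times. Both probe sets of Gorai.006G247800 followed this course, Ghi.5775.1.S1_s_at with differences of 0.86, 1.71, 1.96 and -0.20, and Ghi.5775.1.A1_at with 0.61, 1.29, 1.28 and -0.23. The group means of Gra.1441.1.A1_at and Ghi.5775.1.A1_at lay below the 20th percentile of the arrays. With it as a floor, each had -0.07, -0.02 and -0.13 at 6, 12 and 24 h.

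The 2 probe sets of Gorai.009G017100 had the largest 24 h differences among members measured at all times in the signaling block. GhiAffx.31721.2.S1_s_at measured 983, 574 and 762 in CBW-damaged leaves, against 279, 426 and 412 in control leaves at 6 h (1.04, SE 0.308), and 1495, 1120.1 and 780.3 in CBW-damaged leaves, against 379.8, 347 and 238 in control leaves at 12 h (1.79). After 24 h it measured 744, 1156 and 932 in CBW-damaged leaves, against 110.2, 206 and 141 in control leaves (2.66, or 6.3-fold), and at 48 h 307, 318 and 306 in CBW-damaged leaves, against 184, 108 and 240.3 in control leaves (0.88). The groups were apart at every time, and the damaged level at 48 h was 2.99-fold below that at 24 h. Its partner Gra.1585.1.A1_at measured 1977, 1255 and 1519 in CBW-damaged leaves, against 814, 1072 and 977 in control leaves at 6 h, and 2862, 2384 and 1778 in CBW-damaged leaves, against 798, 829 and 608 in control leaves at 12 h. At 24 h it measured 1684, 2229 and 1958 in CBW-damaged leaves, against 311, 515 and 365 in control leaves, and at 48 h 782, 869 and 813 in CBW-damaged leaves, against 529, 329 and 610.3 in control leaves. Its differences were 0.71, 1.64, 2.32 (SE 0.236) and 0.79 at the 4 times, with no overlap of groups at any of them.

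The 3 signaling members that were always lower in damaged leaves were Ghi.6993.1.A1_at, GhiAffx.16540.2.S1_at and Ghi.4158.1.A1_s_at. Ghi.6993.1.A1_at was below all control arrays at every time by an almost constant amount, -0.65, -0.81, -0.84 and -0.83, although its level in undamaged leaves was 2.08-fold higher at 12 h than at 6 h. GhiAffx.16540.2.S1_at was below them at every time as well, by -1.35 at 6 h and -0.71 at 48 h. With a floor at the 20th percentile of each array these 2 values were -0.35 and -0.09. Ghi.4158.1.A1_s_at overlapped controls at 12 h (-0.17) and was lowest against them at 48 h (-1.20, SE 0.258). With that floor its differences at 6, 24 and 48 h were -0.14, -0.53 and 0.0. A probe set of the same sequence cluster that was not a member, Ghi.4158.2.S1_s_at, overlapped controls at its 3 measured times and was not called (limma adjusted p = 0.858, 0.369 and 0.449 at 6, 12 and 24 h). Its group means, 44.95 to 63.26, lay below the 20th percentile of the arrays, and it had no values at 48 h, so it cannot speak for or against the member.

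**Figure D3:**
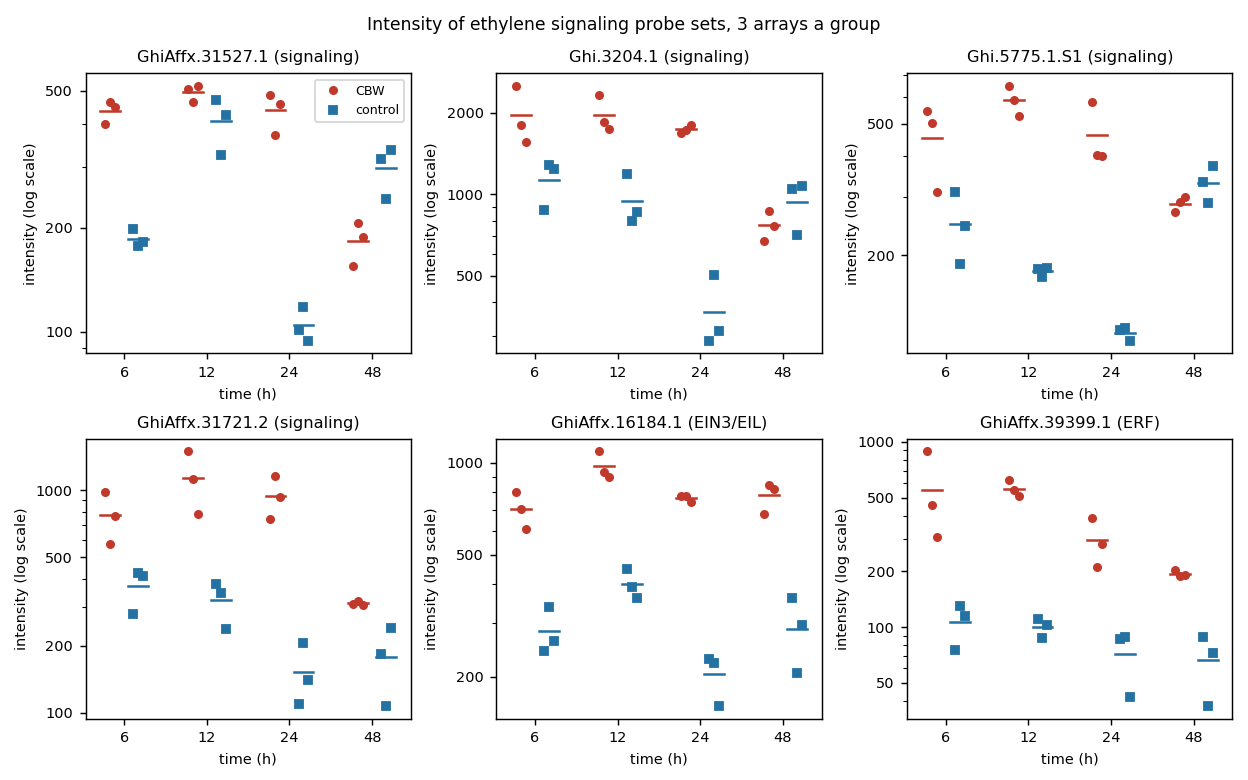
Intensity (log scale) of 6 ET signaling probe sets on each array at 6, 12, 24 and 48 h, with red circles for CBW-damaged leaves, blue squares for control leaves and bars for the mean of 3 arrays. For GhiAffx.31527.1, Ghi.3204.1 and Ghi.5775.1.S1 the control leaves were lowest at 24 h, and at 48 h the damaged leaves no longer exceeded them, with log2 differences of -0.70, -0.28 and -0.20.

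The MAP kinase Ghi.757.1.S1_x_at (LOC107903096, named MPK3 and MPK6; MPK6 phosphorylates ACS proteins in Arabidopsis) differed little. It measured 488, 436 and 515 in CBW-damaged leaves, against 436, 520.0 and 574 in control leaves at 6 h, and 522, 544 and 536 in CBW-damaged leaves, against 381, 378 and 332 in control leaves at 12 h. Its 24 h values were 477, 550.5 and 550.2 in CBW-damaged leaves, against 458, 601 and 506 in control leaves, and at 48 h 471, 502 and 483 in CBW-damaged leaves, against 422, 371 and 446 in control leaves. The groups overlapped at 6 and 24 h and were apart at 12 h (0.56, SE 0.118), where the control level was lowest, and by less at 48 h (0.24).

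The EIN3/EIL factors, the transcription factors at the head of the ET response, were higher in CBW-damaged leaves at every time, by log2 0.26 to 1.93. The probe sets Ghi.7115.1.S1_s_at, Gra.260.2.S1_s_at and GhiAffx.16184.1.S1_at match 1 gene of G. raimondii, Gorai.004G227800. The brightest, Ghi.7115.1.S1_s_at, measured 2074, 1577 and 1683 in CBW-damaged leaves, against 1072, 1641 and 1807 in control leaves at 6 h, where the groups overlapped (0.26), and 3203, 2846 and 2847 in CBW-damaged leaves, against 2085, 1640.3 and 1596 in control leaves at 12 h. After 24 h it measured 2202, 2843 and 2377 in CBW-damaged leaves, against 1256, 1778 and 1298 in control leaves, and at 48 h 1778, 2148 and 1938 in CBW-damaged leaves, against 1277, 1014 and 1307 in control leaves. It was above all controls at these later times, by 0.75, 0.79 and 0.71. GhiAffx.16184.1.S1_at stood further off, with 765.3 ± 20.9 in CBW-damaged leaves and 204 ± 37.7 in control leaves at 24 h (SD, n = 3 each; 1.93, SE 0.186) and differences of at least 1.28 at all times. GhiAffx.43606.1.S1_s_at, of another gene, had differences of 0.30 to 0.62.

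The ERF probe sets, whose place below EIN3 was not tested here, were higher in CBW-damaged leaves wherever they were measured, GhiAffx.24637.1.S1_at at 24 h alone. GhiAffx.39399.1.S1_at (LOC107941184, ERF7) measured 889.9, 455 and 309 in CBW-damaged leaves, against 75.1, 130.3 and 116 in control leaves at 6 h (2.26, SE 0.364), and 619, 548 and 513 in CBW-damaged leaves, against 111, 87.2 and 103 in control leaves at 12 h (2.48). At 24 h it measured 389, 212 and 279 in CBW-damaged leaves, against 85.8, 88.1 and 42.1 in control leaves (2.06), and at 48 h 205, 188 and 191 in CBW-damaged leaves, against 88.3, 37.6 and 72.8 in control leaves (1.64). No damaged array fell among the controls, and the level in damaged leaves was 1.96-fold lower at 24 h than at 12 h. The control values of GhiAffx.39399.1.S1_at at 24 and 48 h lay below the 20th percentile of the arrays. With that percentile as a floor its differences at these 2 times were 1.25 and 0.71. GhiAffx.24637.1.S1_at had values at 24 h alone, 184, 85.7 and 76 in CBW-damaged leaves, against 4.44, 4.62 and 5.62 in control leaves. Its difference of 4.45 (SE 0.337) rested on these very low control values, and was 1.92 after 32 was added to each intensity and 0.12 with a floor at the 20th percentile of each array, which left almost none of it.

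The time at which damaged leaves were highest was counted in each of the 2 blocks, with no test of a difference between them. All 15 signaling members measured at all times had their highest CBW mean at 12 h, whereas 26.9% of all 13341 such probe sets did. For 10 of the 15 that mean exceeded the next highest by less than the larger SD of the 2 groups, as for Ghi.3204.1.S1_at with 1970 ± 311 at 12 h and 1960 ± 496 at 6 h (SD, n = 3 each). Of the 14 biosynthesis members, 7 were highest in damaged leaves at 6 h and 3 at 12 h, with 2 each at the later times, where 30.3%, 26.9%, 11.3% and 31.4% of all probe sets had their highest mean at the 4 times. For 8 of these 14, too, the highest mean exceeded the next by less than the larger SD of the 2 groups. In control leaves the signaling members were more scattered, and their highest mean came at 12 h for 5 of the 15 and at 6 or 24 h for 4 each, beside 32.1%, 32.2% and 19.4% of all probe sets at 12, 6 and 24 h. The lowest control mean came at 24 h for 8 of the 15, beside 15.8% of all probe sets. The largest difference from controls came at 24 h for 9 of the 15 signaling members, beside 18.1% of all probe sets, and at 6 h for 8 of the 14 biosynthesis members, beside 44.1%. These shares describe the same arrays that chose the members, and members that share a gene are not independent.

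Of the 24 genes, 8 were measured by 2 or 3 probe sets, 19 members in all, and the probe sets of 1 gene had differences of the same sign at every time. The ACO1 gene Gorai.001G096300 had differences of 3.70, 4.31 and 2.87 at 6 h and of 0.57, 0.63 and 0.61 at 12 h. The values 2.87 and 0.61 were of the dim Gra.647.1.A1_s_at, and were -0.07 and -0.02 with a floor at the 20th percentile of each array. The probe sets separated more at 24 h, where Ghi.7921.1.S1_x_at had 3.59 (SE 0.471) and Ghi.8025.1.S1_s_at 1.78 (SE 0.275). For the EIN3/EIL gene Gorai.004G227800, GhiAffx.16184.1.S1_at was further from its controls than both partners at every time, by more than 1 SE on either side. Signals of such probe sets can come from close copies of a gene in the 2 subgenomes of upland cotton, which the array does not separate.

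**Figure D4:**
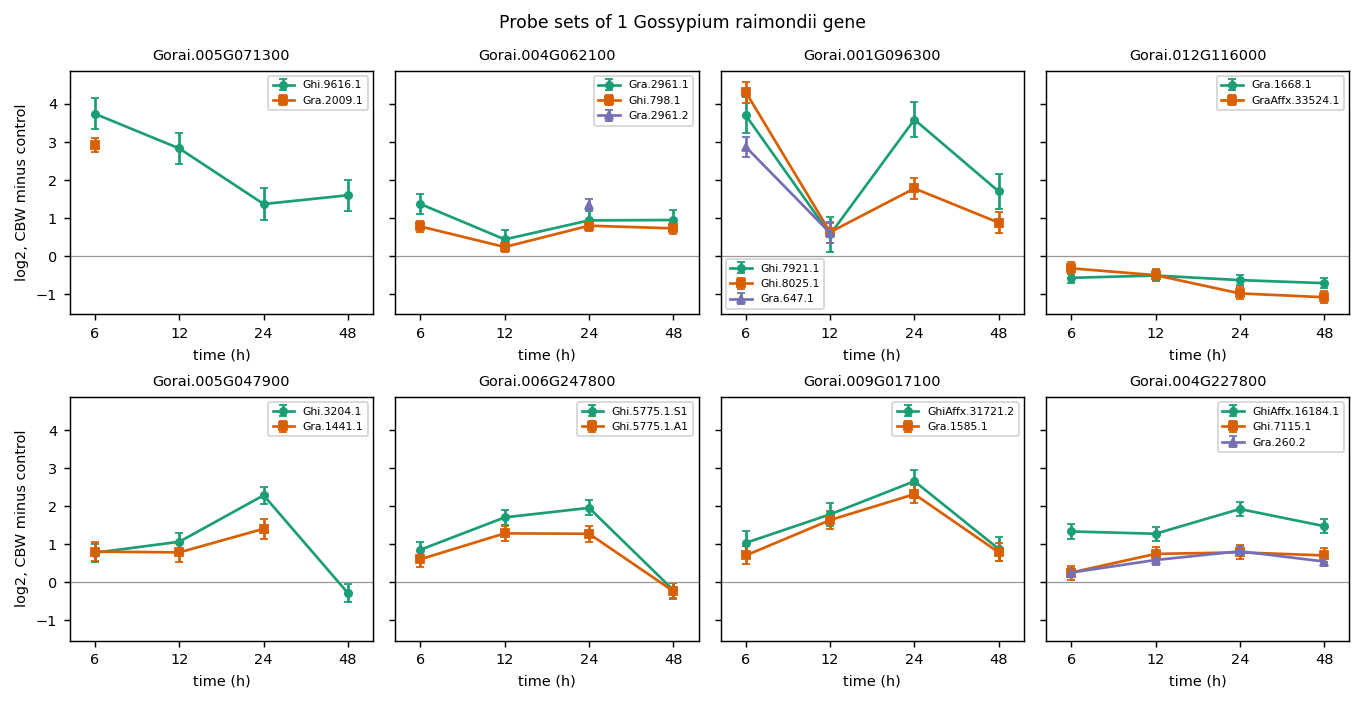
Log2 difference (CBW minus control, with SE from the model over 24 arrays) at 6, 12, 24 and 48 h for the 8 genes of Gossypium raimondii matched by more than 1 member, 1 panel a gene and 1 line a probe set. Probe sets of 1 gene kept the same side of 0 at each time, and for Gorai.001G096300 all 3 came down to 0.57 to 0.63 at 12 h. The dim Gra.647.1 of this gene had -0.07 at 6 h and -0.02 at 12 h with a floor at the 20th percentile of each array.

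The response at 48 h minus that at 6 h is given as a description, because the members were chosen on these arrays and those named here include the ones with the largest 6 h differences. For Ghi.8025.1.S1_s_at the change in response was -3.43 (SE 0.388) on the log2 scale, for Ghi.9616.1.S1_s_at -2.14 (SE 0.578), for Ghi.7921.1.S1_x_at -2.0 (SE 0.666) and for Ghi.23.4.A1_at -1.96 (SE 0.787). For Ghi.5451.1.S1_at it was -1.37 (SE 0.677) and for GhiAffx.39399.1.S1_at -0.62 (SE 0.515). The signaling probe set GhiAffx.31527.1.S1_s_at had -1.93 (SE 0.216), whereas GhiAffx.16184.1.S1_at had 0.15 (SE 0.263) and Ghi.7115.1.S1_s_at 0.45 (SE 0.262). For these last 2 the distance from controls at 48 h was within 2 SE of that at 6 h.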

How the data were processed

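Leaves of 24 samples were hybridized to the Affymetrix Cotton GeneChip, 3 arrays in each of 8 groups. The deposited values were signal intensities on a linear scale that the authors had computed with MAS5 (version not given in the sources used here), and no intensity was changed before log2 was taken. The table held 23972 probe sets, and each had values at a time on all arrays of that time or on none. A linear model with 1 mean a group was fitted to log2 intensity with limma 3.58.1 in R 4.3.3 (lmFit, contrasts, eBayes) over all 24 arrays, p-values were adjusted by Benjamini-Hochberg over all probe sets tested in a contrast, and an adjusted p of 0.05 or less was a call. No AFFX control probe sets were in the table, so RNA integrity was not checked here.

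The members were the probe sets of the ethylene biosynthesis and signaling blocks in the study's pathway list, of which only the probe set and gene columns were used. The members and lists were chosen with earlier results of these data known. Array values are given for members with a difference of 4-fold or more at 1 time or more, for the brightest member of each role, and for any member whose arrays lay above controls at one time and below at another. Gene symbols came from the platform annotation and RefSeq (assembly Gossypium_hirsutum_v2.1, names only), which named 9 of the 35 members. These tables held no gene descriptions, so that the annotated list rested on RefSeq synonyms alone. Leaf markers named in advance were not among those synonyms, and RCA1 took their place. Alternatives were quantile or median scaling, a floor at the 20th percentile, a pseudocount of 32, an intensity trend, arrays of 1 time alone, replicate blocks, and each array left out in turn. The fit was tested on simulated data.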

Additional observations from a re-analysis of the deposited data

Results flagged for a closer look

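GhiAffx.31527.1.S1_s_at, a signaling probe set with no named component, was picked out because all its CBW arrays lay on one side of the controls at some times and on the other side at another. Its log2 difference between CBW-damaged and control leaves was 1.23 at 6 h and 2.07 at 24 h, with every damaged array above every control array, but -0.70 at 48 h, with every damaged array below. The difference between these times was not tested, because the contrast had chosen the probe set. The log2 difference between 48 and 24 h was -1.26 in damaged leaves and 1.51 in control leaves.

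Of the 7 annotated SAMS, ACS and ACO probe sets with values, the response was smaller at 48 h than at 6 h for 2 by limma, and larger for 0, where 11.7% and 23.4% of all probe sets were called in these directions. Both of the 2 were members, and GhiAffx.56172.1.S1_s_at, placed in the list by an ambiguous synonym, was not among them. Because members were chosen by their differences on these same arrays, the count is a description and no test of them.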

How the results depend on the processing

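The counts of members called higher and lower at each time, which restate their choice, stayed within 1.5 times their values under every setting tried, from 11 to 22 higher and 4 to 9 lower. The counts of annotated SAMS, ACS and ACO probe sets called higher under feeding did so too, and 0 were called lower under any setting. Counts over time in undamaged leaves were less stable. At 12 against 6 h, the 1 called lower was 0 without the probe set named by the synonym ACS1 alone, 0 with arrays centred on their median, 0 with a replicate block over control arrays and 0 to 1 with arrays left out in turn, and the 3 called higher were 1 to 3. At 24 against 12 h, the 1 called higher was 0 without that probe set, 0 with the replicate block over control arrays and 0 to 2 with arrays left out, and the 2 called lower were 1 to 3. The 2 responses that were lower at 48 h than at 6 h were 4 with arrays centred on their median, 4 with a replicate block within time and 1 to 3 with arrays left out, alternatives chosen for this count, like the list without ACS1, after seeing the data. The cause was not tested. The labels do not say that replicate numbers pair the samples. Damaged and control arrays of 1 number deviated together with correlations of 0.199 to 0.516 at 12 h, over 0.1 for all 3 pairs, whereas at 6, 24 and 48 h 1 pair or more lay below 0.1, down to -0.165. With a replicate block within time the members called at 12 h were 19 higher and 7 lower. Of 1716 single differences under alternatives, 1658 moved by less than the replicate spread, 50 by more, and 8 past the test turned, each with a floor at the 20th percentile, where both groups lay at or under the floor: Gra.2961.2.A1_x_at to -0.13 at 24 h, Gra.647.1.A1_s_at to -0.07 at 6 h, and Gra.1441.1.A1_at and Ghi.5775.1.A1_at each to -0.07, -0.02 and -0.13 at 6, 12 and 24 h. A further 11 not past the test changed sign, among them Gra.647.1.A1_s_at to -0.02 at 12 h with the floor. The intensity trend, the arrays of 1 time alone and the replicate block within time cannot move a difference of group means. Their part of the 1658 was therefore fixed in advance and says nothing on stability. Of the 35 members, 4 lay below that percentile in both groups at all measured times, and 14 did so in control leaves at 1 time or more. For these, signal near background limits the size of a difference.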
